A study of Mus musculus with 1790 samples.

Results

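Hmx2, Hmx3, Zcchc12 and Tshz2 were followed as 4 of the 49915 gene symbols of the series. They were chosen with their own values in these cells known: Hmx2 and Hmx3 for their place in the preoptic area (POA) and in the fate-mapped cells, Zcchc12 and Tshz2 for turning up beside them. Their levels are therefore given as a description. Counts per gene and cell of 8009 mouse cells stood in 7 tables. All 4 genes had a row in every table except that of P30, which had none for Hmx3.

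At E14.5, 4 collections were made. Wild-type POA and wild-type caudal ganglionic eminence (CGE) were dissected and captured in droplets without a sort or treatment (2106 and 4115 cells). POA cells of wild-type embryos injected with FlashTag, which dyes cells as they divide along the ventricle, were sorted at 2 h among the brightest 5% and captured on C1 chips (352 FlashTag+ cells). POA cells carrying both labels of the Htr3a-GFP, Hmx3-Cre and R26tdTOM mouse were sorted and also captured on C1 chips (418 tdTOM+/GFP+ cells). In that mouse Hmx3-Cre, a BAC transgene, switches tdTOM on for good, so the sort itself selected on the history of Hmx3. A second BAC transgene, Htr3a-GFP, reports Htr3a expression by GFP. The same mouse gave sorted upper-layer interneurons of somatosensory cortex with and without tdTOM at P15 (196 and 194 cells) and P30 (301 and 280 cells), and 47 tdTOM+/GFP+ cells that were patched and then sequenced. The patched cells came from mice of P14 to P25 and from all layers of the cortex, of an area that the methods do not name. They thus differ from the sorts in age and depth below the surface as well as in method. The sources do not make clear whether their counts were collapsed by unique molecular identifier, so a count there may not be 1 molecule. The tdTOM- cells carry the same 3 alleles. The labels name C57BL/6 for the wild-type dissections, and the methods name CD1 for FlashTag and, in different places, CD1 or C57BL/6 for the droplets. Brains were pooled and no label names an animal, so each sort or dissection is 1 sample, and no test, p-value or standard error can be given.

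Hmx2 and Hmx3 are neighbouring NKL-class homeobox genes known for building the vestibular inner ear and parts of the hypothalamus, with overlapping roles. Zcchc12 encodes a zinc-finger protein that has been described as a coactivator of bone morphogenetic protein (BMP) signalling and as a gene of the developing ventral forebrain. Tshz2 encodes a teashirt zinc-finger transcription factor of the nervous system. The POA lies next to the hypothalamus and sends a minority of interneurons, neurogliaform cells (NGCs) among them, to the cortex, while the CGE sends most of the others that express Htr3a.

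In the mouse genome (GRCm38, GENCODE vM21), Hmx3 (ENSMUSG00000040148) lies on chromosome 7 from 131542867 to 131544925 on the plus strand, with 1 transcript of 2 exons. Hmx2 (ENSMUSG00000050100) starts 3847 bases further on, at 131548773, and runs to 131558014 on the same strand, with 2 transcripts of 2 and 3 exons. After another 2207 bases, on the same strand, comes Bub3, which encodes a protein of the mitotic spindle checkpoint. Zcchc12 (ENSMUSG00000036699) is on chromosome X from 36195904 to 36199158 and Tshz2 (ENSMUSG00000047907) on chromosome 2 from 169633013 to 170071816, both on the plus strand. The span of Fgfr2 on the minus strand overlaps Hmx3, Hmx2 and Bub3, and the spans of 3 minus-strand genes overlap Tshz2. The C1 counts were made by strand from exons.

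The promoter windows of the 4 genes are printed because the homeobox pair is found in the same cells and the sequence at its starts can be set side by side. Each holds the 250 bases before and the first 50 bases after a RefSeq start (GRCm38.p6, plus strand), and capitals mark a GC box, GGGCGG on either strand. All 4 genes had such a window, and Hmx2 had a second one. They are Hmx3 at chr7:131542713-131543012, Hmx2 at chr7:131548507-131548806 for its upstream start and chr7:131554043-131554342 for its inner start, Zcchc12 at chrX:36195654-36195953 and Tshz2 at chr2:169632259-169632558.
Hmx3: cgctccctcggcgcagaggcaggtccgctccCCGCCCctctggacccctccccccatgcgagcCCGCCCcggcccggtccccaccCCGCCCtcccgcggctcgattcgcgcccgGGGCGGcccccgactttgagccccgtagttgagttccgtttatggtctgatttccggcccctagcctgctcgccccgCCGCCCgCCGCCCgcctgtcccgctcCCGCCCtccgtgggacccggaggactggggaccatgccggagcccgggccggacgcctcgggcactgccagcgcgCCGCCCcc
Hmx2, upstream start: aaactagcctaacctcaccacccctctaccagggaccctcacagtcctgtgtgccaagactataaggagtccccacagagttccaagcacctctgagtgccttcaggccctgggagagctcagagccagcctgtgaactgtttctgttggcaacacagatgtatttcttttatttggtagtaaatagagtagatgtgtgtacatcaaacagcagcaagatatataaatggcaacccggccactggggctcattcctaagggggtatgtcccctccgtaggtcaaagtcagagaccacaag
Hmx2, inner start: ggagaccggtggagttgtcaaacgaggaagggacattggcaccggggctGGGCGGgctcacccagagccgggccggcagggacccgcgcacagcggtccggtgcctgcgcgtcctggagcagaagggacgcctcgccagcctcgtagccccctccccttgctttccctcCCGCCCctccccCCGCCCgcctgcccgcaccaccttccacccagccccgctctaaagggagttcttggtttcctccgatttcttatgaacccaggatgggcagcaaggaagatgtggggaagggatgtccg
Zcchc12: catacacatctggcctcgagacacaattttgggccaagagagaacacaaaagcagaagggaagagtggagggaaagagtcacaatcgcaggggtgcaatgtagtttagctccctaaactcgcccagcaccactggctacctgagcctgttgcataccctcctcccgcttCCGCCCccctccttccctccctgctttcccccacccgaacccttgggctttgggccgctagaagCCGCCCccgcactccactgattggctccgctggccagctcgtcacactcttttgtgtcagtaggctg
Tshz2: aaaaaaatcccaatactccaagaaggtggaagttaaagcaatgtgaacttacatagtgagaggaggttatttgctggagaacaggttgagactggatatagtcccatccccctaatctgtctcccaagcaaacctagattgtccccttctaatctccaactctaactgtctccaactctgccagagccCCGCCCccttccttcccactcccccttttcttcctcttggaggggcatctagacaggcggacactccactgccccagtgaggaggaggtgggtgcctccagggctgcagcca

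The Hmx3 window held 39 CpG pairs and 8 GC boxes, and 95.6% of the 32851 windows of all genes held fewer CpG pairs. A GC box was present in 35.7% of all windows and 8 or more in 0.262%. The upstream Hmx2 window had 2 CpG pairs, no GC box and a TATAAA that begins at position -29 from the start, a sequence found in 13.6% of all windows. The inner Hmx2 window had 22 CpG pairs and 3 GC boxes, so of both Hmx2 starts the inner one was closer to Hmx3 in composition. Zcchc12 had 11 CpG pairs and 2 GC boxes, and Tshz2 had 2 CpG pairs and 1 GC box. Neither CAAGTG, a core that Hmx proteins bind, nor TAATTA, a general homeodomain core, was in any of these 5 windows. They were found in 13.6% and 5.29% of all windows. The matches within a window did not overlap one another, and both strands were searched.

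The C1 cells of E14.5 held 100168 to 939213 counts each and the droplet cells 2515 to 65782, with medians of 7574 in POA and 5710 in CGE. Levels are in CPM, the summed counts of a gene in a group rescaled to a total of 1000000, with exact Poisson intervals, and shares are cells with at least 1 count with exact Clopper-Pearson intervals, all at 95%. These intervals cover counting error only and are too narrow for the C1 cells, whose counts cluster in single cells. Of the tdTOM+/GFP+ cells, 412 had more counts of post-mitotic GABAergic than of progenitor markers, against 51 of the FlashTag+ cells, so these sorts differ in maturity as well as in lineage. The droplet libraries shared 12 cell barcodes, of which 6 had a count of Hmx2 or Hmx3 in POA and 0 in CGE.

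Hmx2 was the homeobox gene of the pair found in more fate-mapped cells. In the tdTOM+/GFP+ cells it had a count in 301 of 418 cells (72.0%, 67.4 to 76.3%) and a level of 134 CPM (133 to 136), with a median of 45 counts in the cells that had any. In FlashTag+ cells it had 61 counts, all in 1 of 352 cells, or 0.568 CPM. Among droplet cells it was found in 334 of 2106 POA cells (15.9%, 14.3 to 17.5%; 50.3 CPM, 47.4 to 53.4) and in 6 of 4115 CGE cells (0.146%; 0.763 CPM). Within each platform the levels of the 2 collections were far outside each other's intervals.

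Hmx3, whose Cre transgene defines the fate-mapped cells, was found in fewer of them. Of the tdTOM+/GFP+ cells, 126 had a count (30.1%, 25.8 to 34.8%), at 29.8 CPM and a median of 23.5 counts in those cells. The FlashTag+ cells with Hmx3 numbered 4 of 352, with 37 counts in all (0.345 CPM). In droplets, 210 POA cells had Hmx3 (9.97%, 8.72 to 11.3%; 16.7 CPM, 15.1 to 18.5) against 3 CGE cells (0.0729%; 0.182 CPM). Together, 323 fate-mapped cells had a count of Hmx2 or Hmx3, which left 95 of 418 with neither.

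Zcchc12 was found in nearly every fate-mapped cell. It had a count in 414 of 418 tdTOM+/GFP+ cells (99.0%), at 1102 CPM (1097 to 1107) and a median of 238.5 counts. FlashTag+ cells had it in 45 of 352 (12.8%), at 27.4 CPM, and 1 cell with 1068 counts held 36.3% of all their Zcchc12 counts. In droplets it was found in 1230 POA cells (58.4%; 193 CPM, 188 to 199) and 1253 CGE cells (30.4%; 86.1 CPM, 82.6 to 89.6). Unlike the homeobox pair, it was thus common in CGE, where no more than 7 cells had Hmx2 or Hmx3.

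Tshz2 showed the smallest contrasts of the 4. It was found in 230 of 418 tdTOM+/GFP+ cells (55.0%; 91.6 CPM) and 67 of 352 FlashTag+ cells (19.0%; 41.0 CPM). Of the latter, 60 had more progenitor than post-mitotic markers, and the median was 38 counts, close to the 36 of the tdTOM+/GFP+ cells that had it. In droplets it was found in 957 POA cells (45.4%; 105 CPM, 101 to 109) and 1019 CGE cells (24.8%; 90.8 CPM, 87.3 to 94.4), with intervals that did not overlap but levels that were close.

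**Figure D1:**
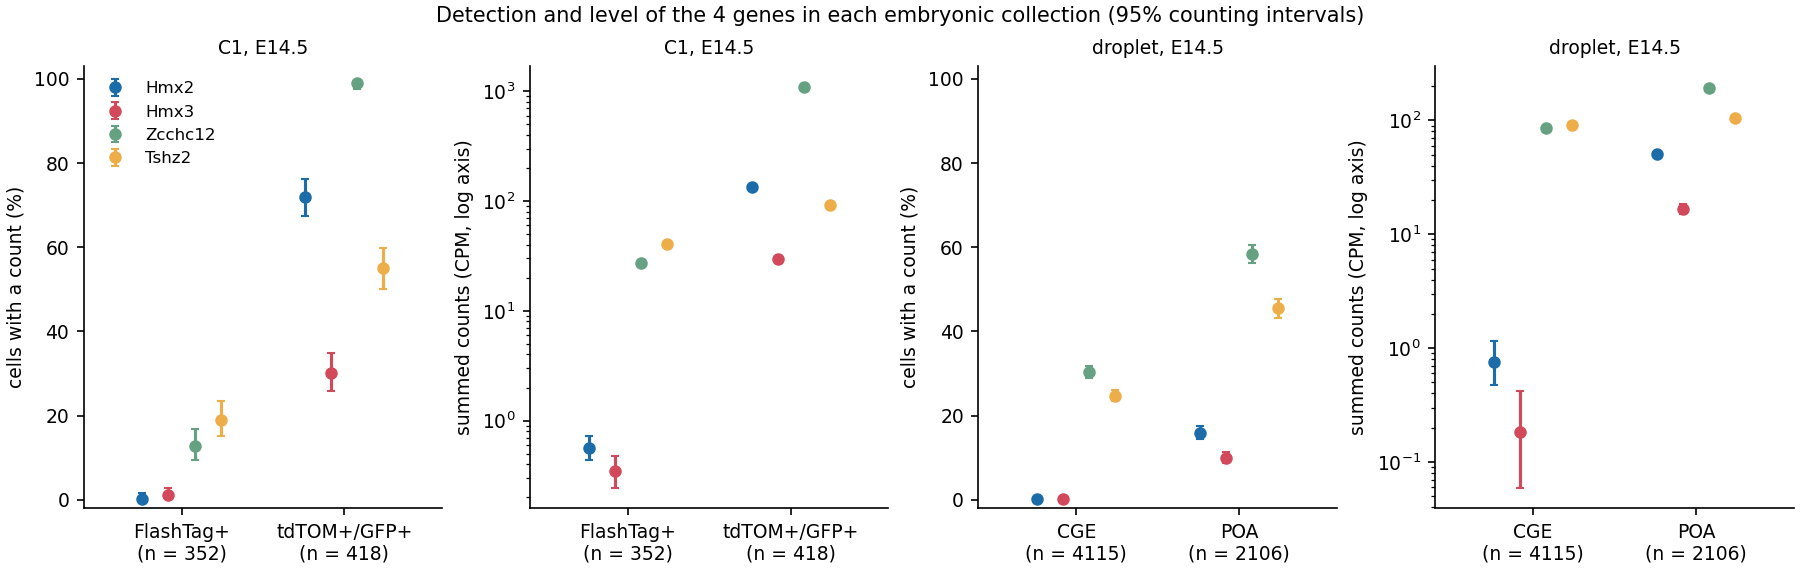
Shares of cells with a count (percent) and summed levels (CPM, log axis) of Hmx2, Hmx3, Zcchc12 and Tshz2 in the 4 collections of E14.5, C1 cells in the left pair of panels and droplet cells in the right pair, with 95% counting intervals as bars. Hmx2 and Hmx3 lie at or below 1.14% of cells in FlashTag+ cells and CGE, whereas Zcchc12 and Tshz2 are found in 12.8% to 30.4% of the cells there.

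Folds were taken as log2 ratios after adding 10 CPM to both levels, and a gene was counted as higher or lower where it differed by 2-fold or more and the larger level was 10 CPM or above. Between tdTOM+/GFP+ and FlashTag+ cells, 3 of the 4 genes were higher by this rule, against 4.05% of all 19417 genes with a row in both, and none was lower, against 8.23%. The log2 fold was 4.89 for Zcchc12, first of all these genes, 3.77 for Hmx2, sixth, and 1.94 for Hmx3. For Tshz2 it was 0.996, just short of the rule, with 0.57 in the cells of plate rows 1 to 20 and 1.80 in those of rows 21 to 40, where it passed. The tdTOM+/GFP+ sort selected on past Hmx3 and on GFP of the Htr3a transgene. Htr3a itself had a count in 141 of these cells and none in 277. In the same comparison 7 of 7 progenitor markers were lower (median log2 -3.06) and 7 of 7 post-mitotic markers higher (median 2.25), and lineage and maturity cannot be told apart in it.

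Between droplet POA and CGE, 3 of the 4 genes were higher, against 1.15% of all 16891 genes in both tables, and none was lower, against 0.705%. Here the homeobox genes led, with log2 folds of 2.49 for Hmx2 and 1.39 for Hmx3, followed by 1.08 for Zcchc12, while Tshz2 was at 0.19. In post-mitotic-like cells alone, those with more counts of GABAergic neuron markers than of progenitor markers, the same number of genes was higher and Tshz2 was at -0.13. In progenitor-like cells alone 0 of the 4 passed, with Zcchc12 at 0.44 and Tshz2 at 0.95. The shares of all genes given above were taken over all cells and not within these subsets. The dissections also differed in genes listed as markers of other cells. Those of Cajal-Retzius cells (Trp73, Lhx1, Lhx5 and Nhlh2) summed to 347 CPM in POA and 11.4 in CGE, with 3 of 4 higher. Those of red blood cells summed to 1953 and 490 CPM, with 4 of 5 higher. The authors had filtered out cells of both types, and whether these counts come from such cells was not tested. None of these marker genes was at 0. Their part in the folds was not tested.

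The close relatives of the 4 genes were read in the same comparisons. Hmx1, the other gene of the family, had no row in the C1 tables of E14.5 or in the POA droplet table. Tshz1 and Tshz3 did not pass the rule in either comparison, with log2 folds of 0.59 and 0.49 between tdTOM+/GFP+ and FlashTag+ cells and of -0.50 and 0.46 between POA and CGE. Zcchc18, the paralog of Zcchc12, was at 273 CPM in tdTOM+/GFP+ and 126 CPM in FlashTag+ cells (log2 1.06) and at 169 and 127 CPM in POA and CGE (0.39).

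Of 12 genes with a row in a list of the Zcchc12 paralog and the BMP pathway, 1 was higher in tdTOM+/GFP+ cells (Zcchc18) and 4 were lower (list median -0.26, all genes -0.01). The lower ones included the BMP target genes Id3 (-3.73) and Id4 (-2.20), which also mark neural progenitors, and the receptor gene Bmpr1a (-1.67). Between POA and CGE none of its 13 genes passed. Of 18 regulators of the ventral forebrain, 6 were higher and 2 lower in tdTOM+/GFP+ cells, led by the interneuron homeobox genes Dlx1 (3.04), Lhx6 (1.66) and Dlx2 (1.49), and 4 were higher and 4 lower in POA, led by Dbx1 (2.86), a homeobox gene of the POA ventricular zone, and Lhx8 (1.85).

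Among hypothalamic neuron genes, 2 of 15 were higher in tdTOM+/GFP+ cells and 2 were lower, with a list median of 0.23. The higher ones were Th (273 against 1.34 CPM, log2 4.64) and Gal, for the neuropeptide galanin (2.50). Th encodes tyrosine hydroxylase, which makes the precursor of dopamine. In the POA droplets 5 of 14 were higher, led by Otp (2.24) and Sim1 (2.02), and 1 was lower. Genes of NGCs and other interneurons split in the fate-mapped cells, with 3 of 15 higher and 3 lower. The higher ones included Htr3a (2.32), whose GFP transgene the sort selects on, and Npy (1.84). The lower ones were led by Ndnf (-3.52). In POA against CGE none of 16 was higher and 5 were lower, among them Htr3a (-1.51).

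All 4 genes were found more often in post-mitotic than in progenitor cells of the droplet POA. In the droplet POA, 539 cells had more progenitor-marker counts and 1558 more post-mitotic-marker counts. Hmx2 was in 3.90% and 20.1% of these cells (8.20 and 62.6 CPM) and Hmx3 in 2.41% and 12.6% (3.90 and 20.5 CPM). Zcchc12 was in 36.7% and 66.2% (70.6 and 229 CPM), and Tshz2 in 30.1% and 50.7% (55.8 and 119 CPM). Both companions were thus common in the progenitor-like cells too, where the homeobox pair was rare.

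In the CGE the same split gave 1336 and 2738 cells. There Zcchc12 was at 49.5 CPM in the progenitor-like and 108 CPM in the post-mitotic-like cells, and Tshz2 at 24.1 and 131 CPM. The Tshz2 level of post-mitotic-like CGE cells was therefore above that of post-mitotic-like POA cells (119 CPM), while its progenitor-like level was below the 55.8 CPM of POA. In the FlashTag+ cells a higher share of Tshz2 in post-mitotic-like cells was not seen. Tshz2 was in 60 of 301 progenitor-like (19.9%) and 7 of 51 post-mitotic-like cells (13.7%), within counting error of each other. Zcchc12 was in 9.30% and 33.3% (7.26 and 141 CPM).

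Droplet POA cells were then ordered by Dcx minus Nes, each as log2 of counts per 10000 plus 1, where Dcx marks young neurons and Nes progenitors. Over 5 bins of 337 to 505 cells the share with Hmx2 was 5.34%, 10.9%, 19.9%, 19.5% and 22.5%, and that with Hmx3 was 1.78%, 6.14%, 14.46%, 13.6% and 13.0%. The first bin was lowest for both genes, and the last 3 bins did not differ beyond their intervals (for Hmx2, 16.2 to 24.0%, 15.8 to 23.6% and 18.6 to 26.8%). Zcchc12 was found in 34.1%, 49.9%, 65.9%, 74.0% and 64.9% of the cells and Tshz2 in 26.4%, 40.2%, 47.9%, 58.3% and 51.7%. Both companions had their largest share in the fourth bin, which was also the deepest, with a median of 8560.5 counts a cell against 7066 in the first.

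With every cell thinned to 3200 counts, which all 2106 POA cells reached, the shares were lower but kept the low start. Hmx2 went from 2.97% in the first bin to 13.3% in the third bin and 12.6% in the last, and Hmx3 from 0.297% to 6.64% and 6.40%. Zcchc12 was at 17.8%, 40.8% and 43.4% in those bins, and Tshz2 at 13.9%, 28.2% and 26.3%. So in thinned cells each of the 4 genes had reached about its last level by the third bin.

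**Figure D2:**
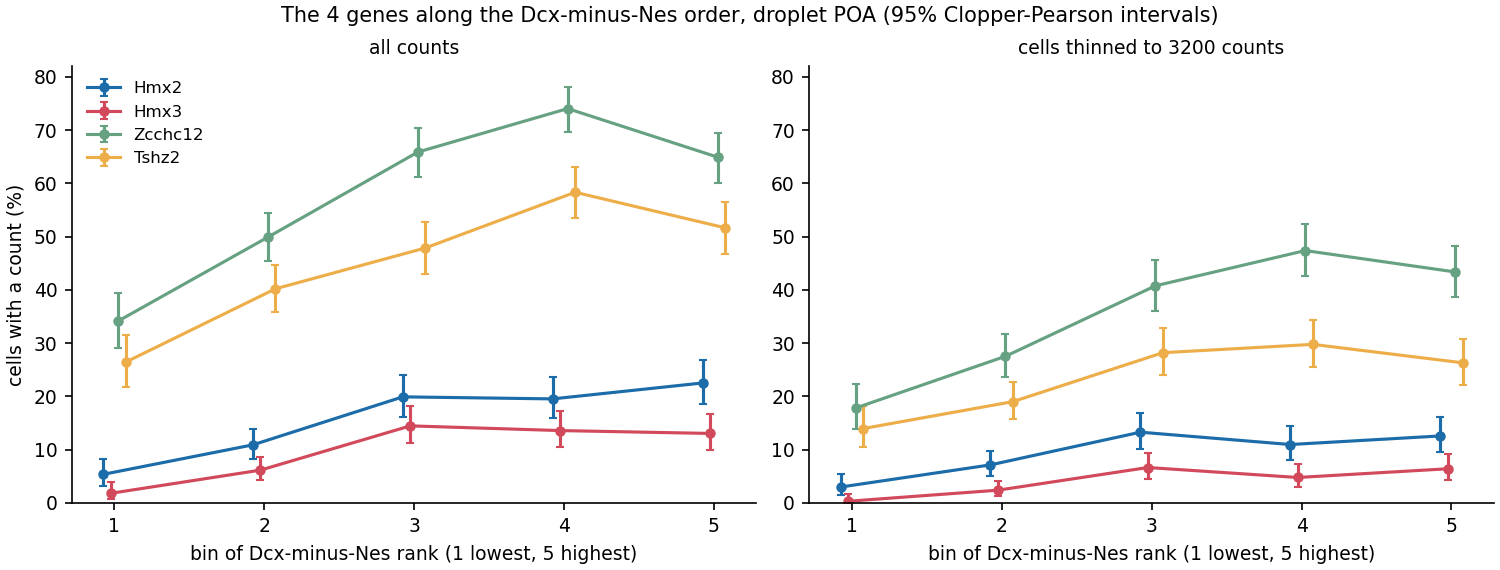
Share of droplet POA cells with a count (percent) of each gene in 5 bins of Dcx minus Nes, from progenitor to neuron, for all counts and for cells thinned to 3200 counts, with 95% intervals. All 4 genes are lowest in the first bin, and Hmx2 goes from 5.34% to 22.5% in all counts.

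The median rank in this order was 62.1% for cells with Hmx2, 61.9% for Hmx3, 58.3% for Zcchc12 and 58.5% for Tshz2, where that of all cells is 50%. By marker class, of the POA cells with Hmx2, 93.7% were post-mitotic-like, and of those with Hmx3, 93.8%, against 74.0% of all cells. For Zcchc12 the figure was 83.8% and for Tshz2 82.5%. Only 21 progenitor-like cells had Hmx2 and 13 had Hmx3. Within the tdTOM+/GFP+ cells, which are nearly all post-mitotic-like, the order carried little: Hmx2 was in 69.0%, 67.5%, 79.8%, 72.3% and 71.4% of the cells of 5 bins and Hmx3 in 27.4%, 22.9%, 29.8%, 36.1% and 34.5%.

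Hmx2 and Hmx3 were found in the same POA cells. Hmx3 had a count in 151 of 334 cells with Hmx2 (45.2%, 39.8 to 50.7%) and in 59 of 1772 cells without it (3.33%, 2.54 to 4.27%). Conversely, 71.9% of the cells with Hmx3 had Hmx2, against 9.65% of those without. Cells with more counts show more genes, so the same shares were taken in thinned cells, where they were 20.9% against 2.41%, and 47.7% against 7.88%. Within post-mitotic-like cells alone, thinned, Hmx3 was in 21.9% of the cells with Hmx2 and 3.15% of those without. The difference was as wide without the progenitors.

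Zcchc12 was also found more often in Hmx2 cells. It had a count in 280 of 334 POA cells with Hmx2 (83.8%) and 53.6% of those without, and in thinned post-mitotic-like cells the shares were 64.1% (56.8 to 70.8%) and 39.6% (37.0 to 42.3%). With Hmx3 as the given gene the thinned post-mitotic-like shares were 51.8% (40.7 to 62.7%) and 42.1% (39.6 to 44.7%), with intervals that overlapped. Splitting the thinned cells further, Zcchc12 was in 66.7% of 42 cells with both homeobox genes, 62.3% of 159 with Hmx2 alone, 37.0% of 46 with Hmx3 alone and 32.8% of the rest. The share of Zcchc12 was higher with Hmx2, and its share in cells with Hmx3 alone was within counting error of the share in cells with neither.

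Tshz2 behaved differently. Over all counts it too was more frequent in Hmx2 cells, 65.0% against 41.8%, and in Hmx3 cells, 65.2% against 43.2%. In thinned cells the shares were 25.9% and 23.4% for Hmx2, and 28.4% and 23.4% for Hmx3. In thinned post-mitotic-like cells they were 25.5% (19.5 to 32.3%) with Hmx2 and 26.6% (24.2 to 29.0%) without. At equal depth, a higher share of Tshz2 in homeobox cells was not detectable. Thinning also left fewer cells with a count, so a small difference could be missed. The summed level of Tshz2 in post-mitotic-like POA cells, not thinned, was 132 CPM with Hmx2 and 114 CPM without.

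Counted as patterns, all 4 genes were found together in 96 POA cells (4.56%), whose median depth was 16521 counts, against 6094 for the 571 cells (27.1%) with none. Zcchc12 with Tshz2 and no homeobox gene made up 474 cells, and Hmx2 with none of the others 22. Among tdTOM+/GFP+ cells the most frequent pattern was Hmx2, Zcchc12 and Tshz2 without Hmx3, in 111 cells (26.6%), followed by Hmx2 with Zcchc12 in 84. All 4 genes were found in 56 (13.4%), Zcchc12 alone in 44, and 1 cell had none.

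The fate-mapped cells were selected on past Hmx3 and were far deeper than the droplets, so their shares are not set against those of the POA. Among the fate-mapped cells Hmx2 was in 82.5% of the 126 cells with Hmx3 and 67.5% of those without, and in thinned cells in 85.6% and 64.1%. Zcchc12 was present in 99.3% of the cells with Hmx2 and 98.3% of those without, so its share could not separate them. Its level in post-mitotic-like cells was 1255 CPM with Hmx2 and 741 CPM without. Tshz2 was in 55.8% of the cells with Hmx2 and 53.0% of those without, within counting error of each other. Its level in post-mitotic-like cells was 97.3 and 80.8 CPM.

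**Figure D3:**
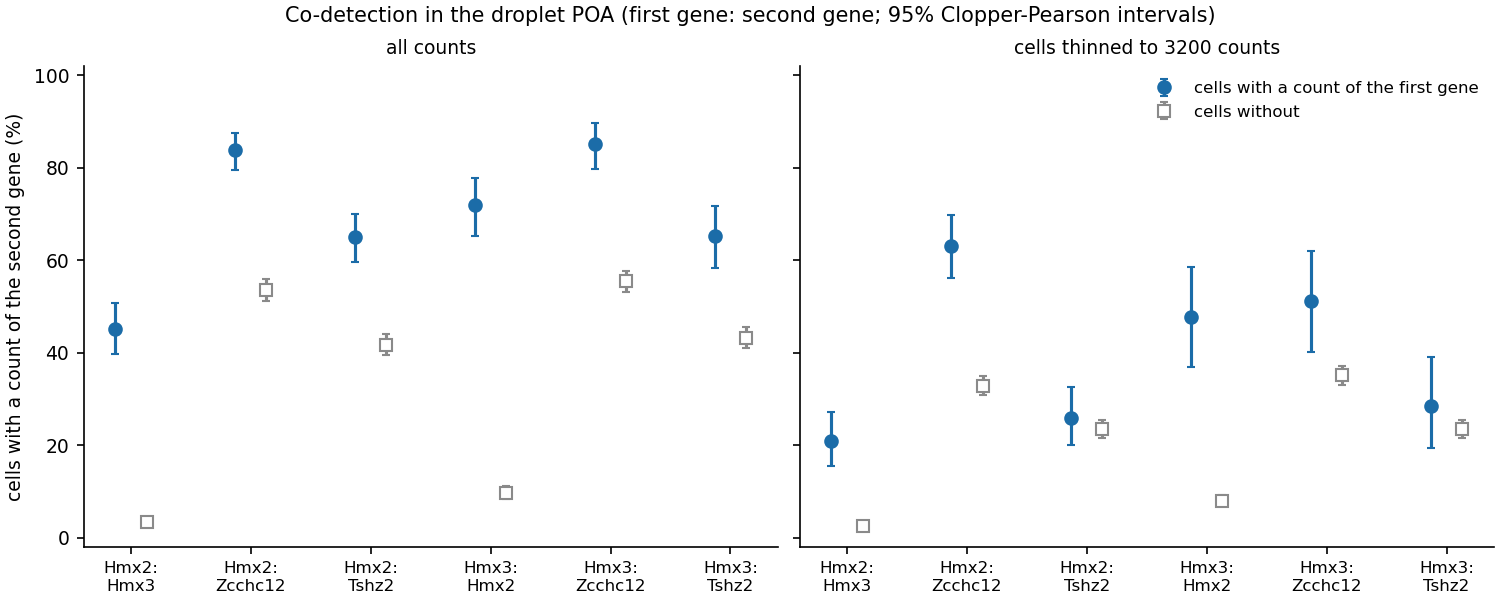
Share of droplet POA cells (percent) with a count of a second gene among cells with (filled) and without (open) a count of the first, Hmx2 or Hmx3, for all counts (left) and for cells thinned to 3200 counts (right), with 95% intervals. In thinned POA cells the gap remains for Hmx3 in Hmx2 cells (20.9% against 2.41%) and for Zcchc12 (63.2% against 32.9%), while for Tshz2 it closes to 25.9% against 23.4%.

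As a description over cells, the correlation of log2 counts per 10000 plus 1 between Hmx2 and Hmx3 was 0.575 over the 2106 POA cells, and 0.568 over the 151 with both genes. It was 0.180 over the 418 tdTOM+/GFP+ cells. Between Hmx2 and Zcchc12 it was 0.337 and 0.215, and between Hmx2 and Tshz2 0.0956 and 0.0423. The points of each value share a library and differ in depth.

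The POA cells with Hmx2 or Hmx3 numbered 393 (18.7%). Htr3a was in 8.50% of the thinned cells with either gene and 11.2% of the others, with intervals that overlapped, and Tox2, which encodes an HMG-box factor of NGCs, was in 21.5% and 11.2%. In thinned tdTOM+/GFP+ cells Tox2 showed no such difference, with 50.2% and 50.9%. In the POA, red-blood markers summed to 2495 CPM in the homeobox cells and 1768 CPM in the others, Cajal-Retzius markers to 377 and 337 CPM, and glutamatergic markers to 222 and 229 CPM, all 7 present in both. The part of the red-blood counts in the values above was not tested.

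Ranked by the smaller of the correlations in the droplet POA and the tdTOM+/GFP+ cells over 10976 genes found in at least 2% of both, the gene most like Hmx2 was Bub3 (0.390 and 0.412), its downstream neighbour. Next came Peg3, an imprinted zinc-finger gene (0.346 and 0.319), Th (0.305 and 0.223) and Zcchc12 (0.337 and 0.215). The first 10 also held Celf4, Rftn1, Inpp5f, Dlx1 (0.197 and 0.304), Insm2 and Cadm1. Hmx3 stood at place 12 and Tshz2 at 683. For Hmx3 the list was led by Hmx2 (0.575 and 0.180), Th (0.189 and 0.145) and Dlx1 (0.145 and 0.143), followed by Cdh13, Celf3, Celf4, Nrxn3, Pou2f2, Dlk1 and Usp29, with Zcchc12 at 117 and Tshz2 at 995. Most of these correlations were weak, and the order depended on the measure. With likeness taken from detection in thinned cells, Hmx3 was first for Hmx2 and Zcchc12 at place 17, and neither Bub3 nor Peg3 was among the first 10. Over all counts Bub3 was found in 99.5%, Peg3 in 100% and Zcchc12 in 99.0% of the tdTOM+/GFP+ cells. Dlx1, found in 98.3% of the tdTOM+/GFP+ cells, was still at place 4 for Hmx2 by this measure. Why Bub3, Peg3 and Zcchc12 stood lower by it was not tested.

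Bub3 was picked by its correlation with Hmx2 in these same cells. Its levels and ranks by Hmx2, here and below, describe that likeness further and are no separate evidence for it. The level of Bub3 rose with the class of Hmx2 count in both collections. In the droplet POA it was at 269 CPM (261 to 277) in the 1772 cells without Hmx2, 331 CPM (308 to 355) in the 180 with up to the median of 2 counts, and 639 CPM (608 to 672) in the 154 with more. In the tdTOM+/GFP+ cells it was at 653 CPM in 117 cells without Hmx2, 1200 CPM in 151 with up to the median of 45 counts and 1556 CPM in 150 above it. The 3 levels were apart by more than counting error each time, and cells with more Hmx2 counts were also deeper in the POA (median 12334 counts against 7281 without Hmx2).

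Across the same classes Zcchc12 was at 149, 243 and 454 CPM in the POA and 723, 1137 and 1341 CPM in the fate-mapped cells. Hmx3 was at 4.34, 26.7 and 92.9 CPM in the POA, and at 20.8, 28.9 and 37.0 CPM in the fate-mapped cells. Tshz2 was at 97.8, 138 and 121 CPM in the POA, with no order beyond the first step, and at 80.1, 92.2 and 99.3 CPM in the fate-mapped cells. On the other side of the pair, Acadsb, a metabolic enzyme gene that ends 93922 bases before Hmx3, was at 32.6, 35.8 and 45.2 CPM in the POA, and Ikzf5, a zinc-finger gene beyond it, at 51.9, 52.9 and 45.2 CPM.

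**Figure D4:**
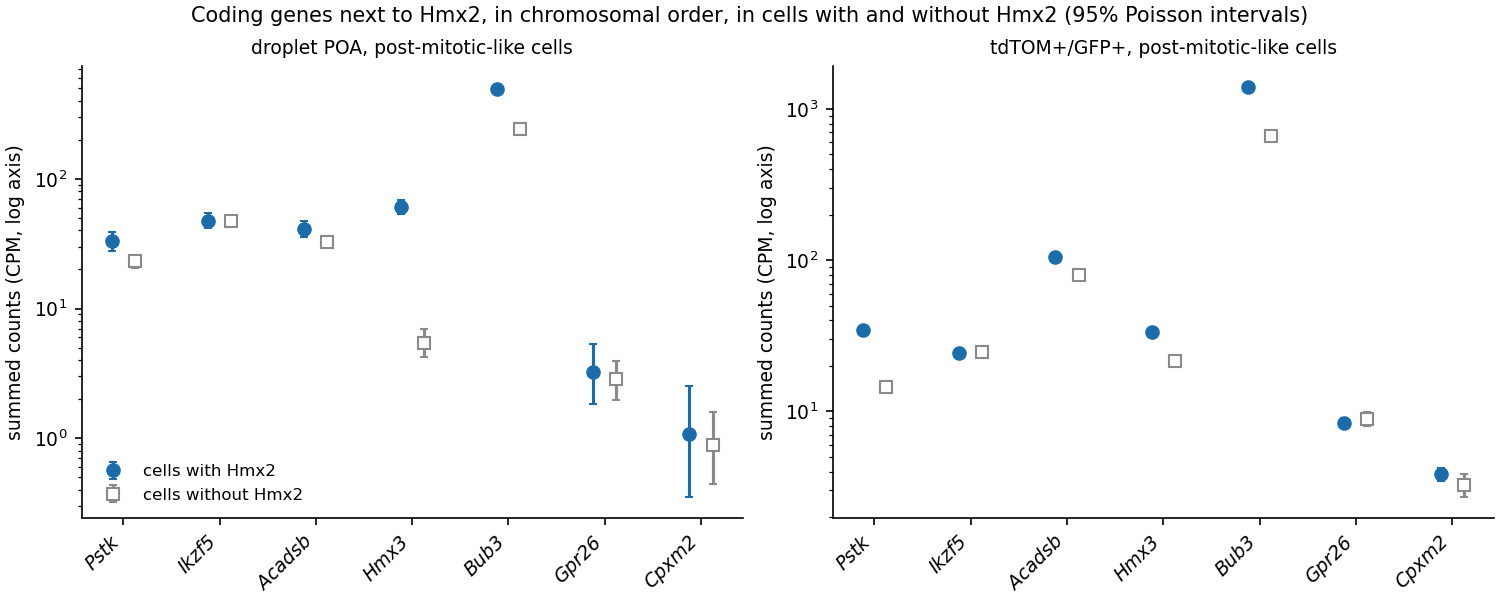
Levels (CPM, log axis) of Hmx3 and the genes around Hmx2 on chromosome 7 in post-mitotic-like cells with and without a count of Hmx2, in genome order, for the droplet POA and the tdTOM+/GFP+ cells, with 95% intervals. Bub3, next to Hmx2, is at 492 against 241 CPM in the POA and 1394 against 663 CPM in the fate-mapped cells, Pstk is at 33.0 against 23.1 and 34.6 against 14.6 CPM, and Ikzf5 has about the same level with and without Hmx2.

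The difference in Bub3 was as large within post-mitotic-like cells alone, with 492 CPM in cells with Hmx2 and 241 CPM without in the POA, and 1394 and 663 CPM in the fate-mapped cells. In that POA comparison Bub3 ranked 6 of 18142 genes by fold (log2 0.997), with Zcchc12 at 8 (0.95). In the fate-mapped cells Bub3 ranked 76 of 22351 (1.06), with Zcchc12 at 373 (0.75). Ikzf5 was at 47.5 CPM with and without Hmx2, Acadsb at 41.0 and 32.7 CPM and Pstk at 33.0 and 23.1 CPM in the POA. Gpr26 and Cpxm2, beyond Bub3, were at or below 3.25 CPM there. In the fate-mapped cells Pstk, a gene on the Hmx3 side, was at 34.6 and 14.6 CPM, a ratio of 2.38 that was above the 2.10 of Bub3. Acadsb was at 105 and 79.3 CPM in them and Ikzf5 at 24.3 and 24.6 CPM, so a higher level with Hmx2 was not particular to Bub3. Over whole collections the Bub3 level was 317 CPM in POA and 288 CPM in CGE, and 1186 CPM in tdTOM+/GFP+ and 241 CPM in FlashTag+ cells.

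The few cells with Hmx2 or Hmx3 outside their main collections were looked at singly. The sole FlashTag+ cell with Hmx2 had 61 counts of it, 9 of Hmx3, 77 of Zcchc12, 0 of Tshz2 and 177 of Bub3, and was post-mitotic-like. The other 3 FlashTag+ cells with Hmx3 had 18, 2 and 8 counts, no Hmx2, at most 1 count of Zcchc12 and of Bub3, and were progenitor-like. Of the 7 CGE cells, 1 had 10 counts of Hmx2, 3 of Hmx3 and 24 of Zcchc12 and another 5, 1 and 82, so that both together held 15 of the 21 Hmx2 counts of that library. Zcchc12 had a count in 5 of these 7 CGE cells and in 2 of the 4 FlashTag+ cells with Hmx3.

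Few cells of the postnatal cortex had a count of either homeobox gene. At P15 both Hmx2 and Hmx3 were found in 0 of 196 tdTOM+ cells, which allows a share of up to 1.53% when the limit is set at 3 counts over the number of cells, and in 0 of 194 tdTOM- cells (up to 1.55% by the same limit). At P30 Hmx2 had a count in 3 of 301 tdTOM+ cells (0.997%), with 36, 4 and 1 counts, and in 0 of 280 tdTOM- cells (up to 1.07% by the same limit). Of those 3 cells, 1 was labelled Dock5, with 36 counts of Zcchc12, and the others were inconclusive. Among the 47 patched cells, 1 had 108 counts of Hmx2 and a different one 33 counts of Hmx3, both labelled Lsp1 and among the deepest, with 7614463 and 15968484 counts.

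Zcchc12 remained in most interneurons of the cortex, in both sorts. At P15 it was in 76.5% of tdTOM+ and 79.4% of tdTOM- cells, at 148 and 147 CPM, and at P30 in 74.8% and 75.0%, at 135 and 166 CPM. The levels of the sorts did not differ beyond counting error at P15, and at P30 the tdTOM- level was higher by more than counting error. The authors' labels, which were assigned from expression, divide the cells further. Core NGCs, the tdTOM+ cells labelled Dock5 or Lsp1, had Zcchc12 at 88.8 CPM (84.8 to 93.0) in 47 of 69 cells at P15 and 139 CPM in 78 of 111 at P30. Core non-NGCs, the tdTOM- cells of other subtypes, had it at 149 CPM (144 to 153) in 75 of 89 and 182 CPM in 76 of 96. The level was lower in NGCs at both ages, by log2 folds of -0.68 and -0.36, short of the 2-fold rule. The size of this difference varied over the chip. In cells of plate rows 1 to 20 the folds were -1.15 at P15 and -0.97 at P30. In rows 21 to 40 they were -0.30 and 0.15, so the direction held at P15 and turned at P30. Among all 17465 genes with a row, 4.07% at P15 and 4.39% at P30 were lower in NGCs by that rule and 3.08% and 4.09% higher, and of the 4 genes 0 were either.

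Among the subtype groups with 10 or more cells, Vip-labelled cells had the highest level of Zcchc12 in each sort at each age. At P15 it was at 230 CPM in 22 of 24 tdTOM+ Vip cells and 167 CPM in 52 of 63 tdTOM- Vip cells, and at P30 at 251 CPM in 13 of 15 and 204 CPM in 34 of 47. Dock5 and Lsp1 cells of the tdTOM+ sort did not differ beyond counting error, with 89.3 and 88.3 CPM at P15 and 138 and 143 CPM at P30. In tdTOM- cells labelled Lsp1 it was at 49.9 CPM at P15 (11 of 20 cells) and 152 CPM at P30 (20 of 28).

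In patched cells, Zcchc12 was found in 17 of 20 Dock5 cells and 23 of 27 Lsp1 cells. Its summed level was 181 CPM in Dock5 and 46.5 CPM in Lsp1 cells, a log2 fold of 1.75, which made it 1 member higher where 1.53% of all 49585 genes were. With the mean CPM of single cells in place of the sum the levels were 150 and 112 CPM and the log2 fold was 0.40, and by shares of cells (85.0% and 85.2%) the subtypes did not differ beyond counting error. Markers of other cells were lower in the Dock5 than in the Lsp1 cells: those of oligodendrocytes summed to 1239 and 5938 CPM, with 4 of 4 lower, those of glutamatergic neurons to 23.6 and 244 CPM, with 4 of 7 lower, those of immune cells to 152 and 338 CPM and those of astrocytes to 42.0 and 104 CPM. Their part in this difference and in that of Tshz2 was not tested.

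Tshz2 was rare in the cortex. At P15 it was in 8 of 196 tdTOM+ cells (0.923 CPM) and 10 of 194 tdTOM- cells (11.0 CPM, of which 1 cell held 64.1%), and at P30 in 4 of 301 (0.172 CPM) and 6 of 280 (2.66 CPM). Core NGCs had it in 3 of 69 cells at P15 and 0 of 111 at P30, and core non-NGCs in 5 of 89 and 3 of 96. Patched cells had it in 16 of 47, where 1 Lsp1 cell with 3244 counts, the cell with Hmx3, held 85.7% of all counts. Dock5 cells, with less of the other cells' markers given above, were lower by the summed rule (log2 -2.12), as 2.14% of all genes were, but at -0.61 without the cell of largest count in each group.

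**Figure D5:**
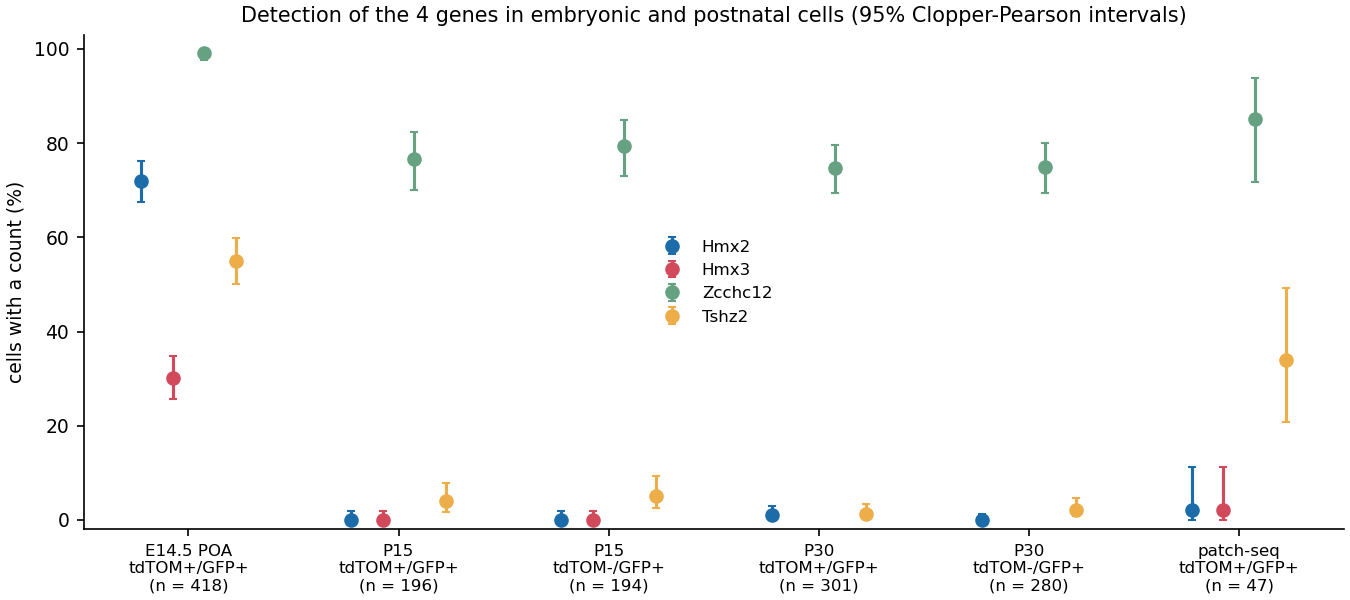
Share of cells with a count (percent) of the 4 genes in the tdTOM+/GFP+ cells of E14.5, the sorts of P15 and P30 and the patched cells, with 95% intervals. Hmx3 has no row at P30. After E14.5 Zcchc12 is found in 74.8% to 85.1% of the cells, the homeobox genes are found in few or none, and Tshz2 in few cells of the sorts and 34.0% of the patched cells.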

How the data were processed

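Every sample was 1 cell (C1 chips, patch-seq) or 1 droplet library. The authors aligned C1 reads to the mouse genome (mm10) with STAR, removed duplicates with UMI-tools and counted exonic reads by strand, used Cell Ranger for droplets, and left out shallow cells, doublet wells and non-GABAergic cells. All deposited tables hold their counts per gene and cell; 0 columns of values were left unused. Groups came from the labels.

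Counts were summed per group (7 tables) and divided by the group's total, and 10 CPM were added before log2 folds. For thinned shares, each cell was reduced at random to percentile 10 of depth (3200 counts in droplets, 169500 in C1 cells of E14.5), which left out 0 POA cells and kept 3532 of 4115 CGE cells, 405 tdTOM+/GFP+ and 288 FlashTag+ cells. Doublets were not sought by any caller; an alternative dropped the 5% of cells with most counts. The progenitor-like class had more counts of 7 progenitor markers (Nes, Hes1, Hes5, Fabp7, Sox9, Mki67, Top2a) than of 7 markers of young GABAergic neurons (Dlx5, Dlx6, Gad1, Gad2, Dcx, Stmn2, Tubb3), and the post-mitotic-like class fewer.

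The genes named were the 4 members, genes among the 3 largest folds per direction of each gene list, and the 10 genes most like Hmx2 and Hmx3. Members and lists were chosen with earlier results of these data known. The genes next to Hmx2 and the splits by Hmx2 count were added after the data were seen. The fold, interval and likeness steps were tested on simulated Poisson counts, which do not cluster in single cells as the C1 counts do. The other steps were not tested in this way. Tools were matplotlib 3.10.9, pandas 2.3.3, scipy 1.17.1 and numpy 2.4.6 under Python 3.11.15.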

Additional observations from a re-analysis of the deposited data

How the results depend on the processing

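No fold of the 4 genes changed sign among the values that passed the 2-fold rule, but several sizes moved. The share of POA cells with Hmx2, 15.9%, was 9.54% in thinned cells, 9.92% with 2 or more counts, 14.3% without the top 5% of cells and 7.07% without cells holding 3 or more counts of other cell types' markers, which left 184 of 2106 cells. That with Hmx3, 9.97%, was 4.18%, 4.18% and 4.35% under the first, second and last of these. In tdTOM+/GFP+ cells Hmx2 was in 65.1% with 2 or more counts, and Hmx3 in 22.7%, or 25.7% when thinned. The share of POA Hmx3 cells with Hmx2, 71.9%, was 47.7% when thinned and 88.6% for cells with 2 or more Hmx3 counts.

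Between tdTOM+/GFP+ and FlashTag+ cells, 786 genes were higher, or 1215 with 1 CPM added and 120 with 100 CPM, and 1598 were lower, or 184 with 100 CPM. Between POA and CGE, 194 were higher, or 390 with 1 CPM and 18 with 100 CPM, and 119 were lower, or 278, 7, 75 by the mean CPM of single cells and 42 in progenitor-like cells alone. With 100 CPM added, and in progenitor-like cells alone, 0 of the 4 genes were higher in POA in place of 3. In patched cells 0 in place of 1 were higher by the mean CPM of single cells. The difference in share between the last and the first bin was 17.2 percentage points for Hmx2, or 12.1 when cells were ordered by summed marker lists and 9.59 when thinned, and 11.3 for Hmx3, or 7.36 and 6.10. Of the 10 genes most like each, 3 for Hmx2 and 1 for Hmx3 were shared when likeness was taken from detection in thinned cells, which changed both the measure and the depth. The ratio of Bub3 with and without Hmx2 in the POA, 1.81, was 2.04 in post-mitotic-like cells, 2.60 when thinned and 2.19 without the top 5%. In tdTOM+/GFP+ cells it was 2.12, or 2.01 when thinned and 2.18 without the top 5%. No paired analysis was possible because each group is 1 sample and no test was run. Depth limits shares in the droplets, where the median cell with Hmx3 had 1 count.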
